A study of Arabidopsis thaliana with 4 samples.

Results

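The genes described here are 10 Arabidopsis thaliana loci of the cold response and of light-stress protection: the transcription factor genes CBF1 (AT4G25490), CBF2 (AT4G25470), CBF3 (AT4G25480) and CBF4 (AT5G51990), the regulator genes ICE1 (AT3G26744) and ZAT12 (AT5G59820), the cold-regulated genes COR15A (AT2G42540) and COR47 (AT1G20440), and the early light-induced protein genes ELIP1 (AT3G22840) and ELIP2 (AT4G14690). They were chosen by name, with earlier results of these data known, as 10 of 27444 protein-coding genes on the 5 nuclear chromosomes. At each locus every peak was taken that overlapped the gene or the 1000 bp outside either of its ends. The gene table gives no strand, so the ends of a gene are called its low-coordinate and high-coordinate ends, and promoter and downstream sequence are not told apart.

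The peaks come from sequencing of chromatin immunoprecipitates (ChIP-seq) of phytochrome A (phyA), the plant photoreceptor for far-red light. All samples were etiolated 4-day-old seedlings of the phyA201 mutant that carried phyA fused to green fluorescent protein (GFP) under the PHYA promoter, and all had received 3 h of far-red light. Anti-GFP antibody was used to precipitate the chromatin in 3 biological replicates. Every replicate has the same genotype and light treatment, and no dark, cold-treated or GFP-free sample was analysed here, so nothing below compares conditions. Whole seedlings were used, and cell types are not separated.

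CBF proteins bind the C-repeat or DRE element in promoters and switch on a set of cold-regulated (COR) genes whose products protect cells against freezing. ICE1, a bHLH protein, acts above them as an activator of CBF expression, and phytochromes with their interacting factors are known to set the level of CBF transcripts by light quality. ELIPs are thylakoid proteins of the chlorophyll a/b-binding family that accumulate when dark-grown seedlings are first lit, under strong light and in the cold.

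Replicates 1, 2 and 3 had 7084, 7534 and 6037 peaks, with 11110782, 7702516 and 4951883 reads inside peaks. Fold enrichment, the authors' value for each peak, was never below 2.95 and had medians of 4.38, 3.85 and 3.58. The sources used here give no library totals, so reads inside peaks are the only measure of depth. Each list was called separately, so a peak is also given by its percentile of fold enrichment within its own list.

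Of the 10 genes, 8 had a shared region, meaning overlapping peaks of all 3 replicates merged into one interval. They were CBF1, CBF2, CBF3, CBF4, ZAT12, COR47, ELIP1 and ELIP2. A shared region lay at 20.3% of all protein-coding genes by the same rule. Because the 10 genes were chosen with earlier results of these data known, the 2 shares are not an independent comparison. COR15A had peaks in replicates 1 and 2 and ICE1 in replicate 2 alone. By replicate, 9, 10 and 8 of the 10 genes had a peak, where 35.3, 35.7 and 28.1% of all genes did. The same 8 genes also had summits (the highest points of peaks) of all 3 replicates in the gene or its flanks, against 14.3% of all genes. With only peaks at a deposited false discovery rate of at most 1%, 5 of the 10 genes and 5.66% of all genes had a shared region, and CBF3, CBF4 and COR47 no longer did. With a fold enrichment of at least 4, 4 of the 10 and 5.52% of all genes had one, and CBF1, CBF4, ZAT12 and ELIP2 no longer did.

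The 10 genes held 37 distinct peaks, 13, 13 and 11 in replicates 1, 2 and 3. Of these, 28 lay above the median fold enrichment of their own list and 6 above its 90th percentile. By reads per bp, 23 lay above the median of their list and 7 above its 90th percentile. The fold enrichments of the 37 peaks ran from 3.02 to 6.56 in replicate 1, from 3.26 to 5.59 in replicate 2 and from 3.36 to 5.35 in replicate 3. Over the 8 shared regions the median of the mean fold enrichment was 4.75, against 4.32 over all 3323 shared regions. The 8 were taken for reaching one of the 10 genes or its flanks, so these medians are of unlike sets. Of the 37 summits, 30 (81.1%) were no more than 500 bp from the nearest protein-coding gene end. The share was 68.9% of all 20655 summits. The 37 peaks were taken because they lay at or beside a gene, and the others were not. The 2 shares are therefore unlike, and no difference is read from them.

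**Figure D1:**
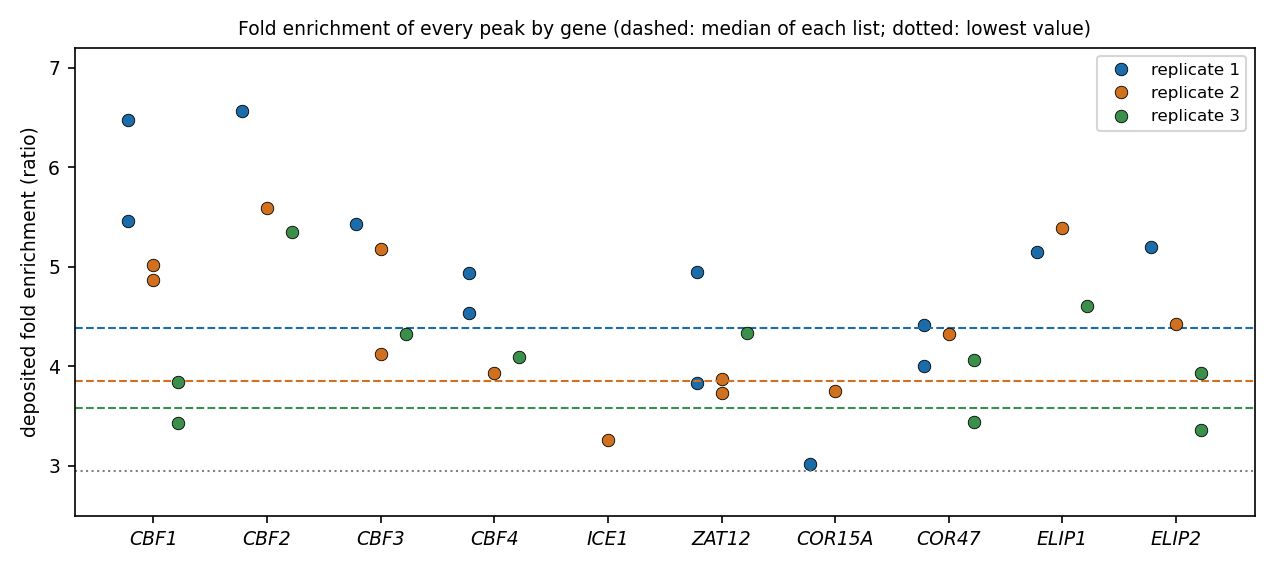
Deposited fold enrichment of every peak (points, coloured by replicate) at each of the 10 genes; dashed lines give the median of each list (4.38, 3.85 and 3.58) and the dotted line the lowest value, 2.95. The CBF2 points (6.56, 5.59 and 5.35) lie above every line, and those of ICE1 and COR15A lie at 3.75 or below, with no point in replicate 3.

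CBF1, CBF2 and CBF3 lie in tandem on chromosome 4, with 1774 bp between CBF2 and CBF3 and 2379 bp between CBF3 and CBF1. Taken with their flanks as one locus of 9747 bp (13014250 to 13023996, TAIR10), the cluster held 4, 5 and 4 peaks in replicates 1, 2 and 3. The peaks contained 8187, 6275 and 4422 reads, which were 0.0737, 0.0815 and 0.0893% of the reads inside all peaks of the list. They covered 73.0, 78.8 and 69.3% of the locus. These shares stood above those of 99.5, 99.9 and 99.9% of windows of the same length centred on each protein-coding gene, of which the median window was covered to 4.65, 5.51 and 0%. At least 4 peaks in every replicate were found in 0.0911% of the windows, 25 in number. Joined where they overlapped, these windows lay at 21 separate places, and 1 window was centred on CBF3. The comparison with windows was chosen after the peaks of the cluster had been seen.

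The nearest peaks beyond the cluster were also located. On the low-coordinate side they ended 10996, 24226 and 24245 bp before the locus in replicates 1, 2 and 3. On the high-coordinate side they began 23575, 11841 and 12208 bp after it. No replicate had a further peak within 10996 bp of the locus. Distances around other loci were not taken, so the cluster is not called isolated.

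**Figure D2:**
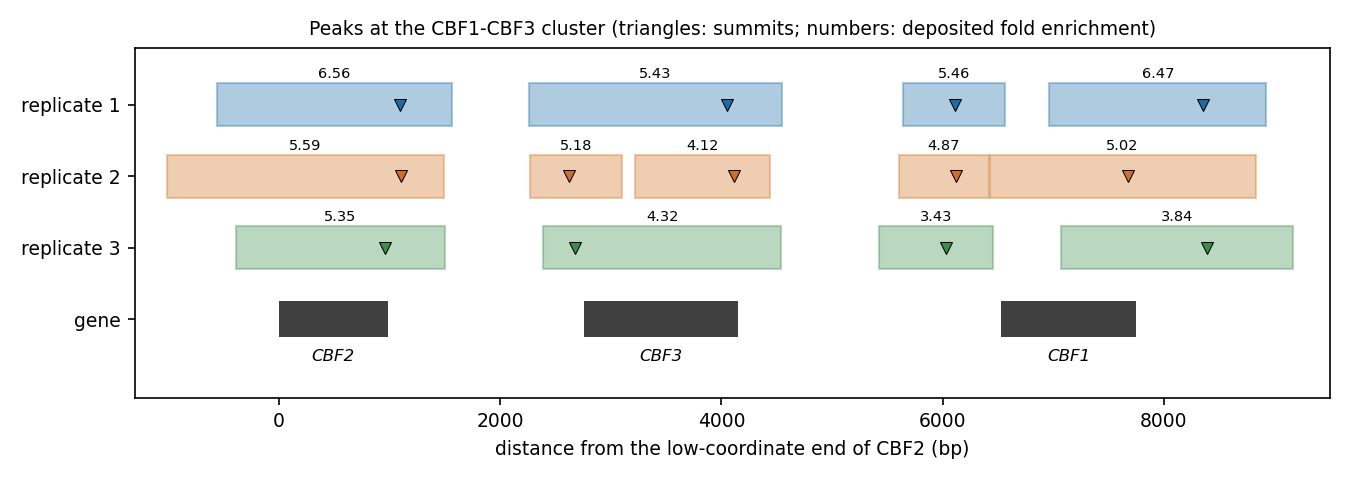
Peaks of replicates 1, 2 and 3 (bars, numbered by fold enrichment, with summits as triangles) over the genes CBF2, CBF3 and CBF1 (dark boxes), by distance in bp from the low-coordinate end of CBF2. Each replicate has a single peak over CBF2, and a separate peak before the low-coordinate end of CBF1 whose summits line up.

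At CBF2 each replicate had 1 peak that covered the whole gene. Its fold enrichment was 6.56, 5.59 and 5.35 in replicates 1, 2 and 3 (mean 5.83 ± 0.64, SD, n = 3), from 2486, 2207 and 1120 reads over 2123, 2505 and 1888 bp. These values stood at the 95.7th, 94.7th and 97.1st percentile of their lists, the highest percentiles of the 10 genes in each replicate. The summits lay at the high-coordinate end of the gene, 105 and 116 bp beyond it in replicates 1 and 2 and 24 bp inside it in replicate 3. They fell within 140 bp of each other, and the shared region (13014234 to 13016811) touched no other gene. By reads per bp the peaks stood lower, at the 94.9th, 89.5th and 46.3rd percentile of their lists. By mean fold enrichment the region stood above 96.3% of all shared regions.

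At CBF3, listed as DREB1A in the gene table, replicates 1 and 3 had 1 peak over the whole gene and replicate 2 had 2. The fold enrichments were 5.43 in replicate 1, 5.18 and 4.12 in replicate 2 and 4.32 in replicate 3, and the strongest peaks averaged 4.98 ± 0.58 (SD, n = 3). The replicates placed their summits at opposite ends of the gene. Replicate 1 had its summit 95 bp inside the high-coordinate end, and replicate 3 had its summit 86 bp before the low-coordinate end. Replicate 2 had a summit at each, 137 bp before the low-coordinate end and 39 bp inside the high-coordinate end. Each end therefore carried summits of 2 replicates, within 51 and 56 bp of each other. The lncRNA gene AT4G07385 overlaps the region on its low-coordinate side.

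CBF1 had 2 peaks in every replicate. The first lay before the low-coordinate end, with fold enrichments of 5.46, 4.87 and 3.43 in replicates 1, 2 and 3 and 1007, 643 and 617 reads. Its summits lay 422, 411 and 498 bp outside the gene and within 87 bp of each other. The sequence there is also annotated as AT4G03125, a gene of the class misc_RNA. The second peak covered the high-coordinate part of the gene and the sequence beyond it, with fold enrichments of 6.47, 5.02 and 3.84 and 2390, 1946 and 1369 reads. Its summits lay 611 and 644 bp beyond the gene in replicates 1 and 3 and 74 bp inside it in replicate 2. The gap between the peaks was 400 bp in replicate 1, 7 bp in replicate 2 and 607 bp in replicate 3, and 67.1, 100 and 55.9% of the gene lay inside peaks. The strongest peaks averaged 5.11 ± 1.32 (SD, n = 3), the widest spread of fold enrichment among the 8 genes with shared regions.

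Over the cluster as a whole, 4 of 13 summits lay inside protein-coding genes and 9 outside. Of all summits, 35.1, 36.5 and 35.5% lay inside protein-coding genes in replicates 1, 2 and 3. The cluster was thus not set apart in this. When summits of any replicate within 200 bp were joined into a site, the cluster had 6 sites. Those at the high-coordinate end of CBF2 and before the low-coordinate end of CBF1 held a summit of all 3 replicates. Of the others, 3 held summits of 2 replicates and 1 a summit of replicate 2 alone. CBF1, CBF2 and CBF3 are close copies of each other, and how the alignment placed reads that match several copies is not stated in the sources. Its part in these values was not tested.

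CBF4, the member of the family known for its response to drought and abscisic acid, lies alone on chromosome 5 (21116877 to 21117860). The peaks of its shared region had fold enrichments of 4.54, 3.93 and 4.09 in replicates 1, 2 and 3 (mean 4.19 ± 0.32, SD, n = 3) from 1746, 982 and 805 reads. Their summits lay 265, 305 and 258 bp beyond the high-coordinate end of the gene. They fell within 47 bp of each other, the closest placing of the 8 shared regions. The mean stood above 41.8% of all shared regions, below their median. The region reaches IMPA-8 (AT5G52000), the next gene on that side. Replicate 1 had a second peak on the other side with a fold enrichment of 4.94, whose summit was 606 bp outside CBF4 and inside AT5G51980. With that peak as the strongest of replicate 1, the mean over the locus was 4.32 ± 0.54.

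ICE1 had a single peak, in replicate 2, with a fold enrichment of 3.26 from 417 reads over 629 bp. It stood at the 16.9th percentile of its list and had its summit 108 bp inside the high-coordinate end of the gene. The nearest peaks of replicates 1 and 3 lay 4481 and 4545 bp from the gene. ICE1 was thus without a peak in 2 of the 3 lists, and whether greater depth would add one was not tested.

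ZAT12, listed as RHL41 and encoding a zinc finger protein that responds to cold, strong light and oxidative stress, lay wholly inside a peak of every replicate. The fold enrichments of those peaks were 4.95, 3.73 and 4.33 in replicates 1, 2 and 3 (mean 4.34 ± 0.61, SD, n = 3), from 2690, 2101 and 1357 reads. The summits lay inside the gene, 37, 252 and 78 bp from its low-coordinate end. By reads per bp the peaks stood at the 99.1st, 93.4th and 70.3rd percentile of their lists, but by fold enrichment at the 70.6th, 43.4th and 83.7th. The 2 measures therefore gave ZAT12 different places. Replicate 1 had a further peak ending 7 bp before the main one (3.83-fold), and replicate 2 one starting 119 bp after it (3.87-fold). With the strongest peak of each replicate at the locus, the mean was 4.38 ± 0.54. Its replicate 2 value is that of the 3.87-fold peak, which lies outside ZAT12 and overlaps AT5G59830. The summit of that peak was 1193 bp beyond ZAT12.

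COR15A, which encodes a chloroplast protein that stabilises membranes during freezing, had peaks at its high-coordinate end in replicates 1 and 2. The fold enrichments were 3.02 and 3.75, from 935 and 784 reads. The value of replicate 1 was close to the lowest of the list and stood at its 1.13th percentile. That of replicate 2 stood at the 44.5th. The summits lay 87 bp inside and 133 bp beyond the gene, and the nearest peak of replicate 3 was 9401 bp away. COR15B, the neighbouring copy, had no peak in the gene or its flanks in any replicate.

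COR47, a dehydrin gene, differed from COR15A in having peaks of all replicates at its low-coordinate end. Their fold enrichments were 4.42, 4.32 and 4.06 (mean 4.27 ± 0.19, SD, n = 3), the narrowest spread of the 8 genes. The reads in these peaks were 2648 over 2742 bp, 4188 over 5883 bp and 919 over 1543 bp. The summits lay 55 bp inside the gene in replicate 1 and 2 and 134 bp outside it in replicates 2 and 3. Replicates 1 and 3 had a second peak at the other end of the gene, with fold enrichments of 4.00 and 3.44 and summits 116 and 239 bp inside it. In replicate 2 a single peak ran across both ends and on into ERD10 (AT1G20450), a dehydrin gene beside COR47. The second peak of replicate 1 was 4048 bp long and covered the whole of ERD10. The merged region of 7426 bp (chromosome 1, 7083487 to 7090912) was longer than 99.1% of all shared regions. It held 6 peaks, of which 5 reached COR47 or its flanks. COR47 and ERD10 thus share their region, which also touches AT1G20430. ERD10 had no summit of every replicate within its own window.

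ELIP1 lay wholly inside a peak of every replicate, and its peaks were long. They measured 4492, 4139 and 3671 bp in replicates 1, 2 and 3 and contained 6656, 5164 and 3193 reads. This was 0.0599, 0.0670 and 0.0645% of the reads inside all peaks of the list (mean 0.0638 ± 0.0036, SD, n = 3). Their fold enrichments were 5.15, 5.39 and 4.61 (mean 5.05 ± 0.40), at the 76.5th, 92.7th and 89.8th percentile. In reads per bp they were 1.65, 1.68 and 1.39 times the mean of their lists. That put them at the 99.6th, 99.8th and 98.8th percentile, higher than any other peak of the 10 genes in each replicate. The edge on the low-coordinate side agreed closely, at 8083402, 8083379 and 8083380 on chromosome 3. The summits did not, since those of replicates 1 and 3 lay 924 and 768 bp beyond the high-coordinate end and that of replicate 2 lay inside the gene, 284 bp from the low-coordinate end. The region also touches AT3G22845.

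ELIP2, on chromosome 4 (8418242 to 8419325), had a region of nearly the same length, 4500 bp against 4515 bp at ELIP1. Replicates 1 and 2 covered the gene with 1 peak each, of 3409 and 4358 bp. Replicate 3 had 2 shorter peaks, of which only the weaker overlapped the gene and covered 39.4% of it. The stronger lay before its low-coordinate end. The fold enrichments were 5.20 and 4.43 in replicates 1 and 2 and 3.93 and 3.36 in replicate 3. The strongest peaks averaged 4.52 ± 0.64 (SD, n = 3), where the replicate 3 value is that of the peak outside the gene. Reads per bp were 1.14 and 1.01 times the list mean in replicates 1 and 2, and 0.917 times over the peaks of replicate 3. ELIP2 thus lay below ELIP1 in reads per bp in each replicate, and in fold enrichment in replicates 2 and 3 but not in replicate 1. No 2 summits lay within 200 bp of each other. They lay 735 bp before the low-coordinate end (replicate 1), 76 bp beyond the high-coordinate end (replicate 2), and 1484 bp before and 131 bp inside the low-coordinate end (replicate 3). The summits of the strongest peaks spanned 2643 bp, more than in 96.9% of all shared regions. The region reaches APS3 on one side and AT4G14695 on the other.

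**Figure D3:**
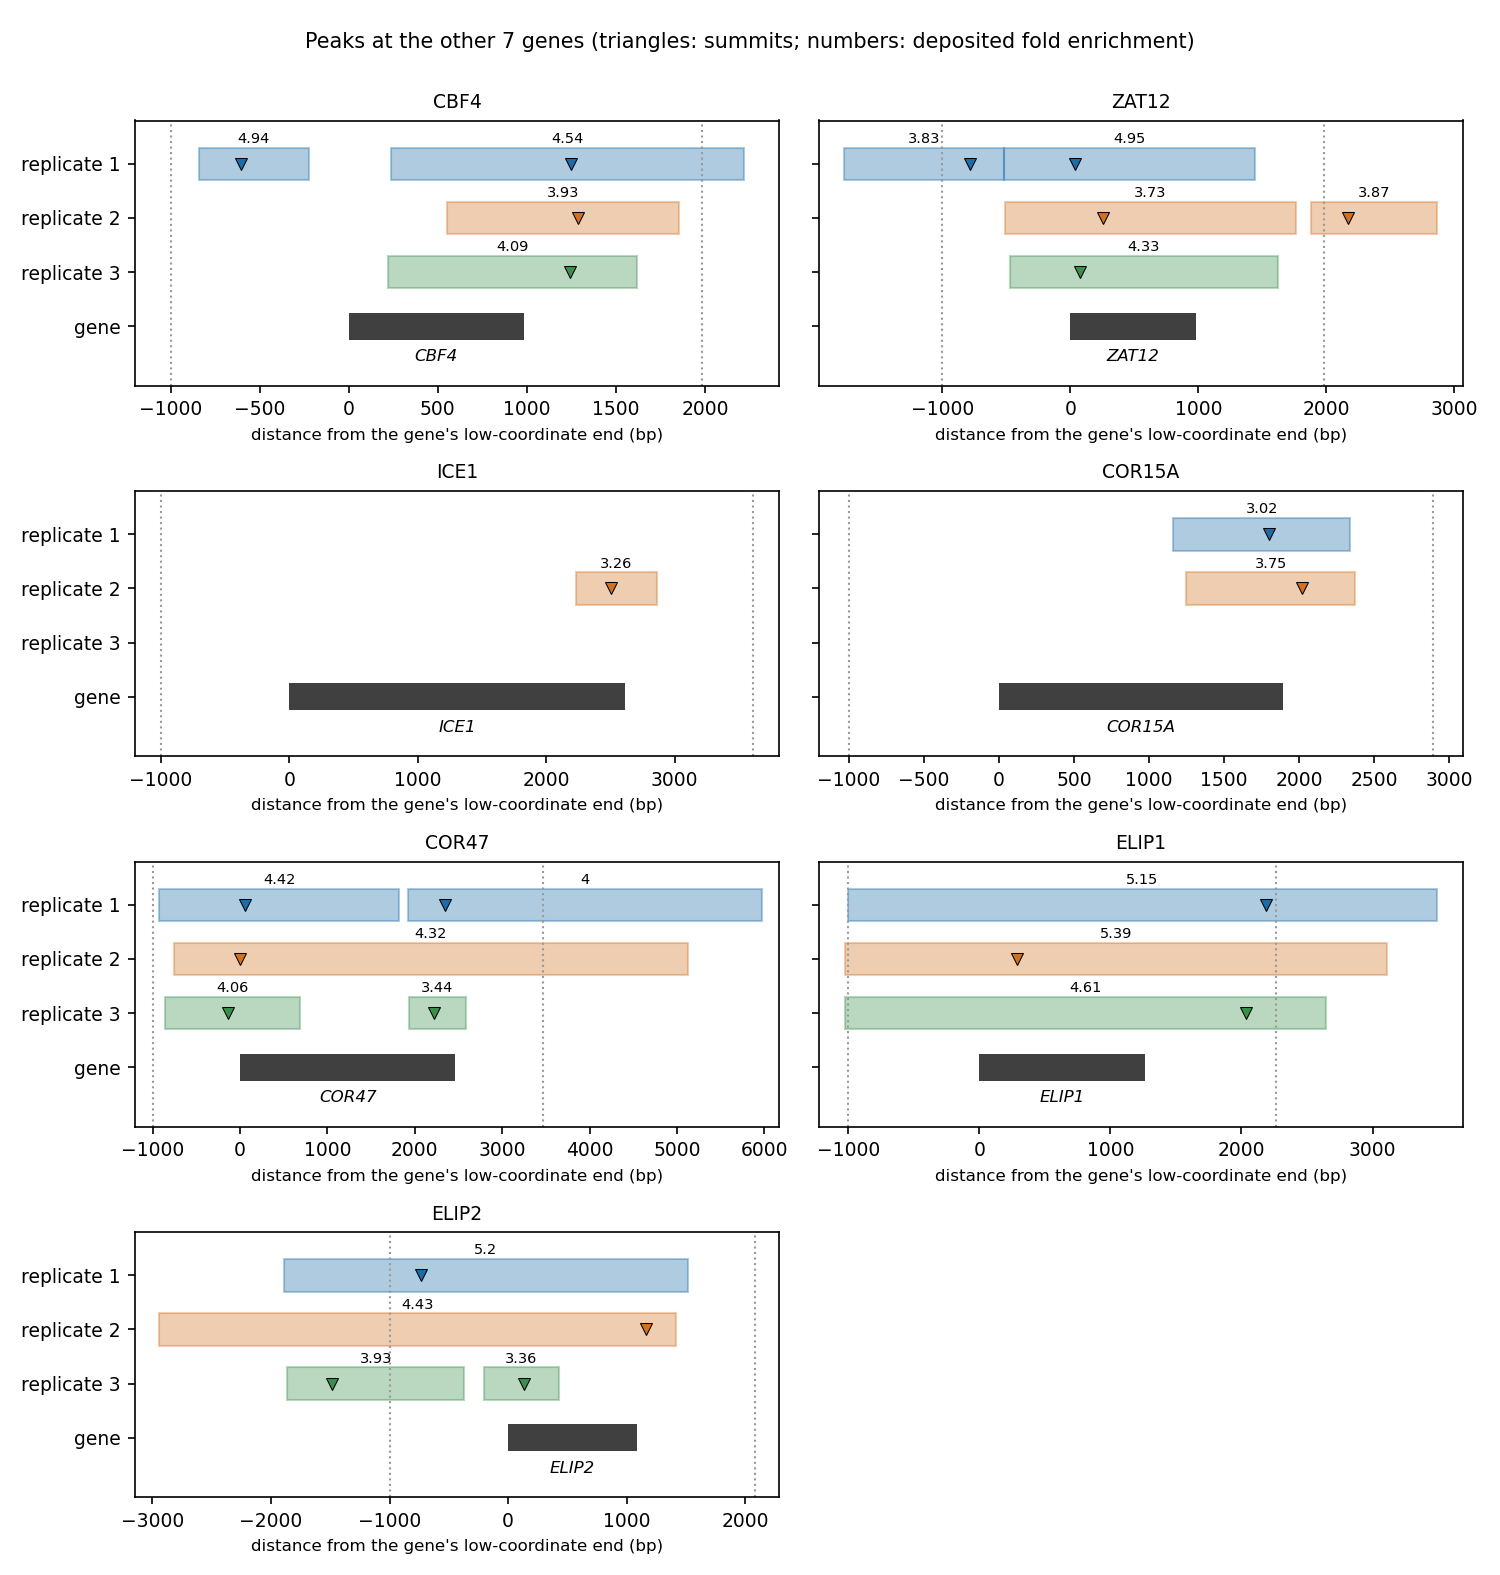
Peaks of replicates 1, 2 and 3 (bars, numbered by fold enrichment, with summits as triangles) at the other 7 genes (dark boxes), by distance in bp from each gene's low-coordinate end; dotted lines mark 1000 bp outside the gene. Summits fall within 47 bp beyond CBF4. Near the low-coordinate ends of ZAT12 and COR47 they span 215 and 189 bp, and they lie apart at ELIP2.

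The loci therefore differed in how sharply the replicates placed phyA. The 37 summits of the 10 genes formed 22 sites by the 200 bp rule, of which 5 held all 3 replicates. These were the 2 of the CBF cluster and 1 each at CBF4, ZAT12 and COR47. A further 5 sites held 2 replicates and 12 held 1. The strongest summits of the shared regions had a median span of 466.5 bp, against 149 bp over all shared regions, and only the regions of CBF2 and CBF4 were under that value. Of the 8 regions, 7 were longer than the median of all shared regions, 2135 bp. The 8 were taken for reaching a gene or its flanks, which a long region does more easily. No difference in length or span is therefore read. Region length and span did not go together throughout, since the longest region, at COR47 (7426 bp), had a span of 189 bp and that of CBF3 (2281 bp) one of 1432 bp.

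**Figure D4:**
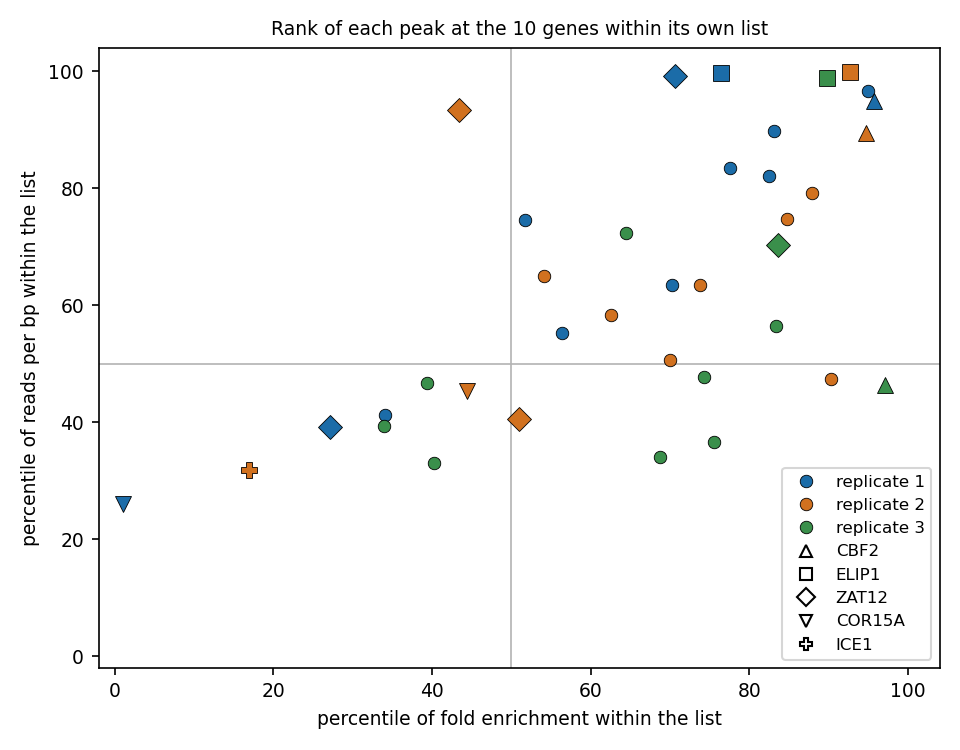
Each of the 37 peaks at the 10 genes, by its percentile of fold enrichment (x axis) and of reads per bp (y axis) within its own list; colours give the replicate and marker shapes single out 5 genes. ELIP1 lies at the top in every replicate (98.8th percentile or above of reads per bp), CBF2 at the right (94.7th percentile or above of fold enrichment), and ICE1 and COR15A at the lower left.

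CBF2, ZAT12 and ELIP1 lay wholly inside peaks in every replicate, which held for 0.616% of all protein-coding genes. Short genes are covered more easily, and the 10 genes had a median length of 1241 bp against 2078 bp over all genes. Gene length was not taken into account in that count.

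A wider list of 45 genes of cold signalling, cold-regulated effectors and relatives of the ELIPs had shared regions at 21 (46.7%), beside 20.3% of all genes. Their mean fold enrichments ran from 3.43 to 5.44. The wider list too was chosen with earlier results of these data known. ERD10 was counted through the region it shares with COR47. Without replicate 3, 34 of the 45 had a region shared by the other lists, against 27.7% of all genes. With peaks at a false discovery rate of at most 1%, 4 of the 45 (8.89%) had one, near the 5.66% of all genes. With a fold enrichment of at least 4, 6 (13.3%) did, against 5.52% of all genes. Summits of all 3 replicates were found in the window of 15 (33.3%), against 14.3% of all genes.

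Among 16 genes whose products act on CBF genes or proteins, 10 had a shared region. The highest means were those of the clock factors that activate CBF genes, CCA1 at 5.44 ± 1.83 (SD, n = 3, as for the values that follow) and LHY at 5.33 ± 1.74. In both, replicate 1 was far above the others, with 7.48 against 4.90 and 3.94 at CCA1 and 7.34 against 4.34 and 4.32 at LHY. ICE2, the close relative of ICE1, had a shared region at 4.09 ± 0.81, with 4.81, 4.25 and 3.22 in replicates 1, 2 and 3, where ICE1 had none. MYB15, whose product represses CBF genes, had 4.86 ± 1.09, and the jasmonate response factor gene MYC2 had 4.92 ± 1.15. The kinase gene OST1, whose product phosphorylates ICE1, had 4.89 ± 0.38. BZR1, of brassinosteroid signalling, had 4.33 ± 0.69. The phytochrome-interacting factor genes PIF3 and PIF4, whose products repress CBF genes, had 4.75 ± 1.54 and 4.22 ± 0.85, and PHYB, the red light receptor gene, had 3.81 ± 0.48. PIF7, EIN3, HOS1, SIZ1 and CAMTA3 had peaks in replicates 1 and 2 only.

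Of 6 related or parallel transcription factor genes, 3 had a shared region: HSFC1 (5.07 ± 0.55), RAV1 (5.02 ± 0.88) and ZAT10 (3.75 ± 0.67). DDF1, a CBF relative, had peaks of 4.27, 4.33 and 4.19 in the 3 replicates, but they did not overlap in one region. DDF2 and ZAT6 had a peak in replicate 1 only. CBF1 to CBF4 had shared regions where DDF1 and DDF2 had none, but of the 4 only CBF2 kept its region under both stricter peak limits.

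Of 17 cold-regulated effector genes, 7 had a shared region. ERD14 (4.86 ± 0.68) and ERD10 (3.92 ± 0.45) encode dehydrins. The region of ERD10 is that of COR47, and its fold enrichments are those of peaks already given there, so neither is separate. COR27 (4.70 ± 0.94) encodes a regulator of the clock and of freezing tolerance. RD29B (4.04 ± 0.66) and RD29A (3.58 ± 0.32) are neighbours on chromosome 5. Both have the same value in replicate 1, 3.58, so they may not be separate counts. GOLS3 (3.81 ± 0.84) encodes an enzyme of galactinol synthesis. COR413-PM1 was counted through a merged region in which only replicates 2 and 3 (4.54 and 3.92) had a peak within its own window. KIN1 and COR6.6, which lie beside each other, had peaks of 4.48 and 2.95 in replicates 1 and 2, the latter equal to the lowest value of the lists.

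Among 6 relatives of the ELIPs, SEP1 had a shared region, at 3.43 ± 0.44. The values of SEP1, 3.31, 3.92 and 3.07 in replicates 1, 2 and 3, were all below those of ELIP1. LIL3.2 had peaks of 5.27, 4.94 and 3.48 that did not merge into one shared region. OHP1 and LIL3.1 had no peak in any replicate. Differences between these groups of genes were not tested.

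**Figure D5:**
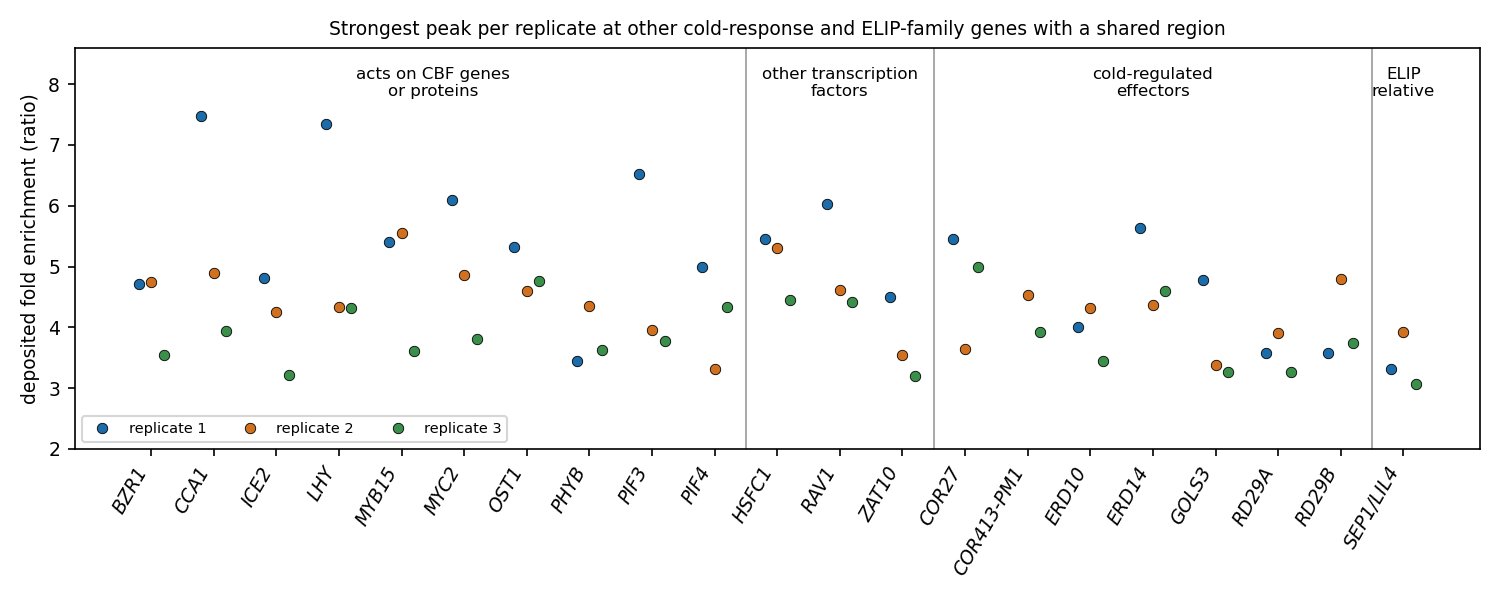
Fold enrichment of the strongest peak of each replicate (points, coloured by replicate) at the 21 genes of the wider list with a shared region, grouped by role. Replicate 1 stands far above the others at CCA1 (7.48) and LHY (7.34), and the lowest point is that of SEP1 in replicate 3 (3.07).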

How the data were processed

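The 3 deposited peak lists were used; the series' 1 input sample was not analysed here. Reads were aligned with Bowtie to TAIR10, per the submitters' processing notes. No peak caller or filter is named in the sources. The lists have no header, and their 9 columns were interpreted by their values, as a MACS 1.4 table. In the deposited lists the counts of reads in each peak are whole and not normalized. The deposited score, taken as minus 10 times log10 of a p-value, was not used. The deposited fold enrichment is a ratio, taken as ChIP over local background. The deposited percent in the last column was taken as the false discovery rate.

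Peaks of different replicates that overlapped by at least 1 bp were merged (Python 3.11.15, pandas 2.3.3, numpy 2.4.6), with gene calls tested on simulated data. Genes came from the RefSeq table of TAIR10.1, on the assumption that its nuclear coordinates are those of TAIR10. As a check, 35.1% of replicate 1 summits lay inside genes, against 63.7% after a move of 2000 bp. Percentiles rank a peak within its own list. Relative reads per bp divide by the list's total reads over total peak length. All 10 genes are described, with every gene of the wider list that had a shared region. The members and lists were chosen with earlier results of these data known, and the roles within the wider list were assigned after the values were seen. With 1 condition no test was run. SDs over 3 lists also hold differences between the lists. Planned motif and protein comparisons were not run, because no sequence was used here. Alternatives varied the flanks, peak thresholds, overlap rule and replicates.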

Additional observations from a re-analysis of the deposited data

How the results depend on the processing

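The count of 8 genes with a shared region stayed within 1.5 times under other flanks, the gene body alone, the stricter overlap rule and peaks of at least 2 replicates. It was 8 to 9 with 1 replicate left out each time. With only 10 genes, settings that loosen the rule could not take the count past that limit. At a false discovery rate of at most 1% it fell to 5 (all genes 1552, wider list 4), and with a fold enrichment of at least 4 to 4 (all genes 1516, wider list 6), where fewer peaks enter. With peaks of at least 2 replicates the counts were 9074 of all genes and 34 of the wider list, against 5574 and 21. Leaving out 1 replicate gave 6011 to 7606 of all genes and 21 to 34 of the wider list, with 34 when replicate 3 was left out. The count of 8 genes with a summit of every replicate became 4 at the 1% limit, 6 with flanks of 500 bp and 8 to 9 with 1 replicate left out. All 40 alternative means of fold enrichment at the 8 genes lay between 0.867 and 1.12 times the value reported. All moved by less than 1 SD. Where 1 of the 3 replicates was left out, that outcome was fixed by arithmetic, so it is no sign of stability. No paired analysis was possible because the 3 ChIP replicates form a single group. Depth is known only as reads inside peaks, so a locus without a peak is not shown to be unbound.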
